A study of Mus musculus with 9 samples.

Results

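The retinoblastoma pocket proteins and the E2F transcription factors they bind were examined in mouse prostate epithelial cell lines with and without Rb1, each grown with serum and after serum withdrawal. Members were the probe sets of the array whose gene symbol in the platform annotation was Rb1, Rbl1, Rbl2, E2f1, E2f3, E2f5, E2f6, E2f8 or Tfdp1, which gave 13 of 12422 probe sets for 8 of the 9 genes, out of 8251 genes named on the array. E2f6 matched none and is not analysed here. A probe set is a group of short oligonucleotides that together read the transcript of a gene, and its intensity is the brightness it gave on the array.

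Pocket proteins hold E2F factors silent in resting cells. Cyclin-dependent kinases phosphorylate them when growth factors are present, and the released E2F factors switch on genes of DNA replication. Most E2F proteins bind DNA as dimers with a DP partner such as the product of Tfdp1. E2f8 encodes an atypical E2F that needs no DP partner and represses transcription, and Rbl1 and E2f8 are themselves known E2F target genes.

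The study used a wild-type line and an Rb-/- line, called Rb-null here, and every array was hybridised with total RNA. Wild-type cells in RPMI-1640 medium with 5% fetal bovine serum gave 3 arrays, and wild-type cells kept 48 hours without serum gave 2. Rb-null cells gave 2 arrays in each of the same media. With 1 line per genotype, whatever else distinguishes the lines cannot be told apart from the loss of Rb1. The labels leave it unsaid whether replicate arrays stem from independent cultures, so the spread behind every p-value may be purely technical, and the small number of arrays limits the precision. In RNA from whole cultures, fewer cells that express a gene and less RNA per cell cannot be told apart.

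Median deposited intensity ran from 445 to 474 over the 9 arrays. All 7 epithelial markers (Krt8, Krt18, Krt5, Krt14, Krt19, Cdh1 and Epcam) lay above 197 on every array, Krt14 only just, at 200 to 239. That value is a floor set at the lower quartile of all values and used in place of a detection limit. Of the markers on the array, 4 of 6 for mesenchyme, 2 of 4 for endothelium, 3 of 5 for leukocytes and 1 of 4 for smooth muscle did so too, while Vim, Pdgfrb, Tek, Ptprc, Acta2, Myh11 and Cnn1 lay below it on all 9. Summed epithelial markers were highest in Rb-null serum cells, at 35447 to 35773, against 29071 to 33538 in wild-type serum, 29875 to 30470 in wild-type serum-free and 30155 to 33568 in Rb-null serum-free cells, and their part in the genotype differences was not tested. Wild-type serum 1 resembled its fellow arrays less (rank correlations of 0.986 and 0.983) than these resembled each other (0.997), and the members' results are also given without it where it changed a call or moved a called value by over 1.5 times.

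Among the members that fell after serum withdrawal, E2f8, Rbl1 and Tfdp1 have a promoter in the reference, and short stretches of these are shown because the family regulates its own members. The sequences are the 120 bases before a transcription start of the RefSeq promoter table in GRCm38.p6, read along the gene's strand. For E2f8 that start lies inside the annotated gene, which extends to chr7:48882073, so its stretch does not precede the outermost end. The Tfdp1 stretch runs past the annotated gene start at chr8:13338725, so its last bases also lie inside the gene. E2f8 lies on the minus strand (chr7:48881597-48881716), as do Rbl1 (chr2:157204535-157204654) and E2f3 (chr13:29986064-29986183), and Tfdp1 lies on the plus strand (chr8:13338631-13338750). Capitals mark an E2F consensus in Rbl1 and Tfdp1, a CCAAT box followed by a cell cycle homology region (CHR) in E2f8, and 2 CCAAT boxes, a CHR and an E2F consensus, in that order, in E2f3, shown as a member that did not pass the test.
Rbl1: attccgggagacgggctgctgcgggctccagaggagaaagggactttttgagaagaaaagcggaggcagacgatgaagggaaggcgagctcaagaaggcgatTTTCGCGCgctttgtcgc
Tfdp1: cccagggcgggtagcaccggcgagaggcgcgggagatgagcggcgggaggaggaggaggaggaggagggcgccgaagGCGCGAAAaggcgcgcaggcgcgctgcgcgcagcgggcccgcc
E2f8: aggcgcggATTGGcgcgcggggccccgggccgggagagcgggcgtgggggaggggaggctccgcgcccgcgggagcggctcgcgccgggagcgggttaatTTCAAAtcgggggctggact
E2f3: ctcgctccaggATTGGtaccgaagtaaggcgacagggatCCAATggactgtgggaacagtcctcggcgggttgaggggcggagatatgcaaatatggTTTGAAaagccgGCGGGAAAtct

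The E2F consensus searched was TTTCCCGC, TTTCGCGC, TTTGCCGC or TTTGGCGC, the CCAAT box was CCAAT and the CHR was TTTGAA, each on both strands and with no overlap between hits of different motifs in these windows. The searched window ran from 250 bases before to 50 after the start, and the promoter table held 9 such windows for 7 of the members. An E2F consensus was found for 3 of the 7 genes, at -18 to -11 in Rbl1, at -43 to -36 from the upstream start of Tfdp1, which is -96 to -89 from its other start, and at -11 to -4 in the upstream window of E2f3. It was found in 2.26% of the 32851 promoter windows of the reference. CCAAT was found for 2 of the 7 genes and in 37.4% of all windows, and the CHR for 3 of the 7 and in 17.9% of all windows. For each motif the members were counted by gene, over any of its windows, and the reference by window, so these shares are not directly comparable. In E2f8 the CCAAT box lay at -112 to -108 and the CHR at -20 to -15. These matches describe letters only. The windows of E2f8 and E2f1 lie inside the annotated genes, which extend to chr7:48882073 and chr2:154569892. Bases before those outer ends were not searched, so the absence of a match there was not tested.

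Each comparison below was read on a log2 scale after quantile normalization, with intensities under the floor raised to it, and the threshold was an adjusted p of 0.05. Of the 13 member probe sets 12 were tested. The other, a probe set of Rb1, lay between 24.1 and 78.0 on every array, below the floor.

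**Figure D1:**
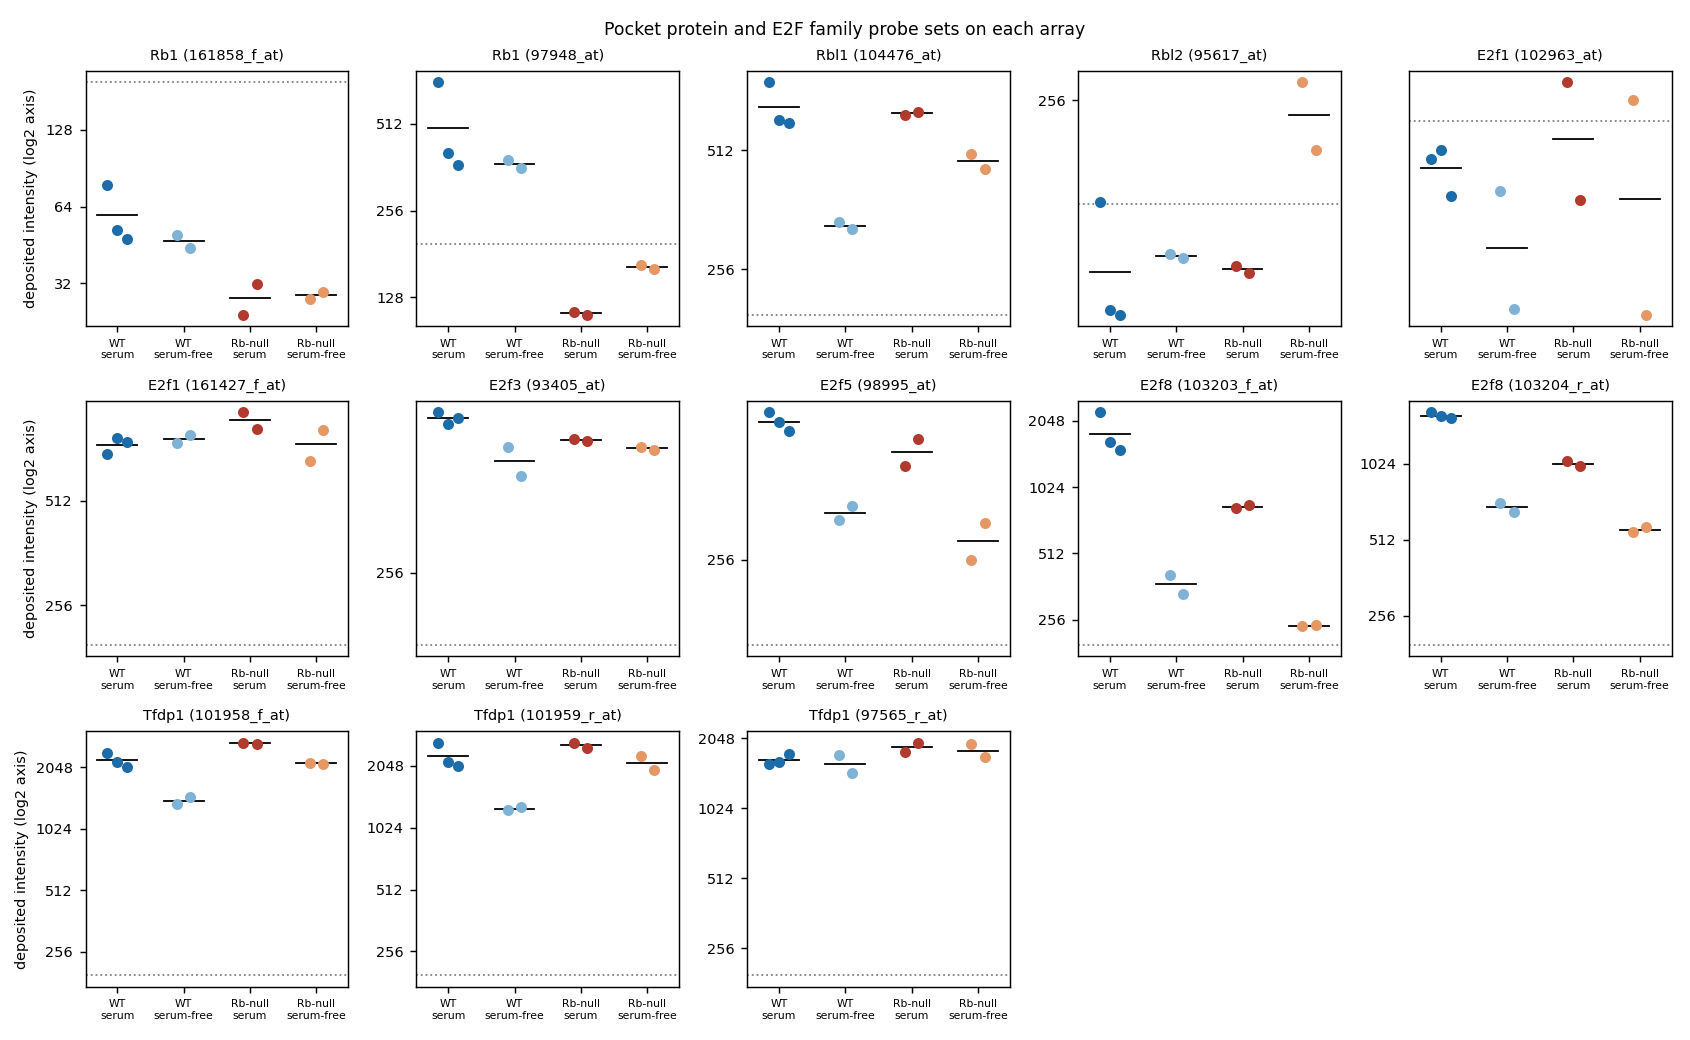
Deposited intensity (log2 axis) of the 13 member probe sets on each of the 9 arrays, with 1 point per array, a black line at the group mean and a dotted line at the floor of 197. E2f8 separated the 4 groups on both of its probe sets, with wild-type serum highest and Rb-null serum-free lowest. E2f3 and the f-suffixed E2f1 probe set moved little, and the other E2f1 probe set lay around the floor.

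Rb1, which encodes the retinoblastoma protein, was the gene the lines were made to differ in. Its tested probe set read 713, 406 and 369 in wild-type serum, 383 and 361 in wild-type cells without serum, and for Rb-null cells 113 and 112 with and 166 and 160 without serum. The lines did not overlap, and every Rb-null array was under the floor, so that the averaged difference of at least 2.15-fold is a lower bound. The probe set passed the filter on low values through the wild-type arrays alone and the floor left no spread among the Rb-null arrays, so the fit's p for Rb1 is not given in support. With the floor at percentile 40 Rb1 was no longer called in any genotype comparison, at -0.34 averaged over the media, -0.50 in serum and -0.18 without serum. Within the Rb-null line the values without serum were the higher ones, but all lay below the floor and were not compared. No source used here says whether the probe sets lie in the deleted part of Rb1.

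Serum withdrawal in the wild-type line asked how the family behaves when a line with Rb1 is deprived of growth factors. E2f8 fell on both of its probe sets, 4.86-fold and 2.24-fold, Rbl1 fell 1.97-fold, Tfdp1 fell on 2 of its 3 probe sets, 1.45-fold and 1.65-fold, and E2f5 fell 1.31-fold. No member rose. Thus 6 of the 12 tested probe sets passed the threshold, each of them lower without serum, against 15.9% of all tested probe sets called in either direction, 9.25% lower and 6.61% higher. The median difference over all tested probe sets was 0.05.

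E2f8, the atypical repressor, moved furthest. Its first probe set, whose f suffix marks oligonucleotides that may also hybridise to related transcripts, read 2235, 1634 and 1509 in wild-type serum and 407 and 335 without serum. Its log2 difference was -2.28 (SE 0.13, adjusted p = 8.16e-06), rank 8 from the lowest of the 9686 tested probe sets. The other E2f8 probe set, with an r suffix, read 1632, 1572 and 1550 in serum and 718 and 661 without, a difference of -1.16 (SE 0.08, adjusted p = 1.73e-05). The groups did not overlap on either probe set. The probe sets agreed in direction while the size of the fall differed between them.

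Rbl1 encodes p107, the pocket protein whose level normally follows the cell cycle. It read 761, 611 and 599 in wild-type serum and 337 and 324 without serum. All serum arrays were above both serum-free arrays, and the difference was -0.98 (SE 0.11, adjusted p = 0.00032). Rbl2, which encodes p130, the pocket protein that predominates in resting cells, read 197, 150 and 148 in serum and 173 and 171 without. All but 1 of these values lay at the floor after normalization, so no withdrawal difference was measurable at this brightness in wild-type cells.

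Tfdp1 encodes the DP1 partner of E2F factors. Its probe set with an f suffix read 2410, 2161 and 2049 in wild-type serum and 1352 and 1455 without serum, and the groups did not overlap. The difference was -0.54 (SE 0.07, adjusted p = 0.000714). The r-suffixed probe set designed from the same sequence record gave -0.73 (SE 0.09, adjusted p = 0.000744), whereas the third, designed from another record, gave 0.04 (95% interval -0.22 to 0.30, adjusted p = 0.845) with overlapping arrays. The probe sets of Tfdp1 therefore disagreed, and the interval of the third excluded the fall seen on the others.

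E2f5, an E2F that acts mainly as a repressor with p130 and p107, read 405, 393 and 382 in wild-type serum and 290 and 302 without, with no overlap. It gave a difference of -0.39 (SE 0.08, adjusted p = 0.00968) that no longer passed once wild-type serum-free 1 was left out (adjusted p = 0.103). The activator E2f3 read 460, 440 and 451 in serum and 405 and 364 without. Its groups did not overlap either, but the difference of -0.19 (95% interval -0.36 to -0.02) did not pass (adjusted p = 0.128), and 44.2% of all tested probe sets had groups that did not overlap in this comparison. The activator E2f1 was above the floor on every array on its f-suffixed probe set, with a difference of 0.11 (95% interval -0.14 to 0.36, adjusted p = 0.544). The other E2f1 probe set lay above the floor on 2 of 9 arrays only. E2f1 thus rests on the f-suffixed probe set, whose oligonucleotides may also hybridise to related transcripts. Rb1 itself gave -0.32 (SE 0.23, adjusted p = 0.414), and -0.02 without wild-type serum 1.

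**Figure D2:**
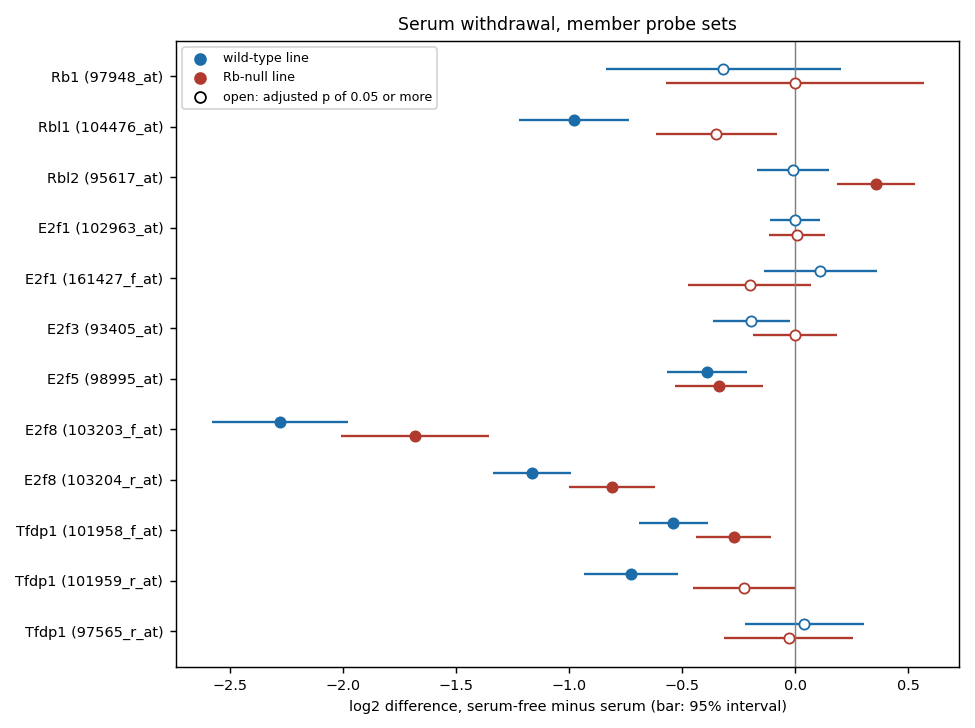
Log2 difference between serum-free and serum medium (points, with 95% intervals) for the 12 tested member probe sets in the wild-type and the Rb-null line; filled points passed the threshold. E2f8 lay furthest to the left in both lines, at -2.28 and -1.68 on its first probe set, and the filled Rbl2 point of the Rb-null line compares arrays with a group at the floor. The Rb1 point of the Rb-null line is 0 because all 4 arrays were at the floor.

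The same comparison in the Rb-null line asked how the family responds to withdrawal where the pocket protein Rb1 is missing. E2f8 again fell on both probe sets, 3.21-fold and 1.75-fold, E2f5 fell 1.26-fold, and Tfdp1 fell 1.21-fold on its f-suffixed probe set. With Rbl2, whose call rests on a group at the floor, 5 of 12 probe sets passed, 4 lower and 1 higher, against 13.9% of all tested probe sets in either direction, 6.42% lower and 7.5% higher. The Rb-null arrays are different from the wild-type arrays, so the withdrawal comparisons share no array, although a single fit gave both their errors.

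E2f8 read 826 and 844 on the Rb-null serum arrays and 240 and 241 without serum on its first probe set. The difference was -1.68 (SE 0.15, adjusted p = 9.83e-05), rank 37 from the lowest of 9686. Its other probe set read 1047 and 1000 against 547 and 575, a difference of -0.81 (SE 0.08, adjusted p = 0.000315). The levels without serum lay close to the floor on the first probe set, and the calls of both were kept without any single array.

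Rbl2 read 165 and 168 on the Rb-null serum arrays, under the floor, and 268 and 226 without serum. Its normalized values exceeded the floor on 3 of 9 arrays, the Rb-null serum-free arrays and wild-type serum 1, so it was tested only because it was high in the group compared. Against the floor it was at least 1.28-fold higher without serum, given as a description, since the floor left no spread in the serum group and the fit's p cannot support the call. The call was lost without Rb-null serum 1, Rb-null serum 2 or Rb-null serum-free 1, and in a fit of the Rb-null arrays alone. Rbl1 read 631 and 641 with serum against 502 and 460 in its absence. These values did not overlap, but 56% of all tested probe sets were likewise separated, and the difference of -0.35 (SE 0.12, adjusted p = 0.0922) passed only without wild-type serum 1 (adjusted p = 0.00577) or with array weights. In these settings the share of all tested probe sets called also rose, from 13.9% to 23.6% and 22.5%.

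E2f5 readings in Rb-null cells were 343 and 372 with serum against 256 and 287 in its absence, a difference of -0.34 (SE 0.09, adjusted p = 0.0309). That call was lost on leaving out any of wild-type serum 2, wild-type serum-free 1, Rb-null serum 1, Rb-null serum 2 or Rb-null serum-free 1 (adjusted p from 0.05 to 0.241). It was also lost in the fit of the Rb-null arrays alone (0.0784) and with the floor at percentile 40, where the difference shrank to -0.07 (adjusted p = 0.515). Tfdp1 on its f-suffixed probe set read 2699 and 2668 against 2150 and 2133, a difference of -0.27 (SE 0.07, adjusted p = 0.0392), lost without any array other than wild-type serum 1 (adjusted p up to 0.25), with the replicate number as a block (0.0751) and after median scaling of the arrays (0.0836). Its r-suffixed probe sets gave -0.23 and -0.03 (adjusted p = 0.209 and 0.959). E2f3 stood at 0.00 (95% interval -0.19 to 0.19) and E2f1 at -0.20 (95% interval -0.47 to 0.07, adjusted p = 0.387).

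Whether the lines differed in their response was tested by the interaction, the withdrawal difference of the Rb-null line minus that of the wild-type line. With limma, 0 of the 12 member probe sets passed, against 0.929% of all tested probe sets (0.454% higher, 0.475% lower). Rbl1 stood at 0.63 (SE 0.16, 95% interval 0.27 to 0.99, adjusted p = 0.15), E2f8 at 0.60 (SE 0.20, adjusted p = 0.273) and 0.35 (SE 0.11, adjusted p = 0.259), and Tfdp1 at 0.27, 0.50 and -0.07. Without wild-type serum 1, Rbl1 passed (0.52, adjusted p = 0.0272), when the share of all tested probe sets called also rose, from 0.929% to 2.64%. That array held the highest Rbl1 reading of all 9, 761.

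The genotype comparison asked how the other pocket proteins and the E2F genes differ between the lines. Averaged over the media, E2f8 was lower in Rb-null cells on both probe sets, 1.86-fold and 1.49-fold, Tfdp1 was higher on 2 of 3, 1.19-fold and 1.21-fold. With Rb1 (lower) and Rbl2 (higher), whose calls rest on groups at the floor, that made 6 of 12 probe sets, 3 lower and 3 higher, against 45.2% of all tested probe sets (21.8% higher, 23.4% lower), so a call here sets no member apart. The difference was -0.90 (SE 0.10, adjusted p = 0.000133) and -0.58 (SE 0.06, adjusted p = 7.15e-05) for E2f8, and 0.25 (SE 0.05, adjusted p = 0.00337) and 0.27 (SE 0.07, adjusted p = 0.0112) for Tfdp1. The Rb-null arrays overlapped the wild-type arrays for both genes over the pooled media, as for all but 23.1% of the tested probe sets. Rbl2 had 2 Rb-null and 1 wild-type array above the floor, and its call was lost with no filter on low values (adjusted p = 0.0503) and without any of 5 arrays, the serum-free wild-type arrays, the Rb-null serum arrays and Rb-null serum-free 1. Rbl1 stood at 0.21 (SE 0.08, adjusted p = 0.061) and passed without wild-type serum 1 (0.26, adjusted p = 0.00157). The share of all tested probe sets called also rose without that array, from 45.2% to 62.9%.

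In serum 3 of 12 passed, all lower in Rb-null cells. Of all tested probe sets 23.6% were called in either direction, 13.2% higher and 10.4% lower, so the number called is near the background. The 3 were Rb1, whose call rests on a group at the floor, and both probe sets of E2f8. The latter stood at -1.20 (SE 0.13, adjusted p = 0.000292) and -0.75 (SE 0.08, adjusted p = 0.00017). Against the wild-type readings of 2235, 1634 and 1509 stood Rb-null readings of 826 and 844, and against 1632, 1572 and 1550 stood 1047 and 1000. All wild-type serum arrays were above both Rb-null arrays, a separation seen for 49.5% of all tested probe sets, and without wild-type serum 1 the differences were -1.06 and -0.77. Rbl1 stood at -0.11 (95% interval -0.35 to 0.13, adjusted p = 0.514), Tfdp1 at 0.12, 0.02 and 0.02, E2f5 at -0.16 (adjusted p = 0.185), E2f3 at -0.14 (adjusted p = 0.236) and E2f1 at 0.13 (adjusted p = 0.436).

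Without serum 7 of 12 passed, against 30.7% of all tested probe sets in either direction, 16.8% higher and 13.9% lower. Among these, the calls of Rb1 and Rbl2 rest on groups at the floor, and their p is not used in support. Rbl1 was 1.44-fold higher in Rb-null cells (502 and 460 against 337 and 324; log2 0.52, SE 0.12, adjusted p = 0.0112). Rbl2 read 268 and 226 against 173 and 171, the latter under the floor, at least 1.28-fold higher as a description with no usable test. Tfdp1 was higher on its f-suffixed probe set at 0.39 (2150 and 2133 against 1352 and 1455; SE 0.07, adjusted p = 0.00522) and on the r-suffixed probe set of the same record at 0.52 (SE 0.10, adjusted p = 0.00552), but not on the third at -0.05 (adjusted p = 0.789). Rb1 and E2f8 were lower, the latter at -0.60 (SE 0.15, adjusted p = 0.0151) and -0.40 (SE 0.08, adjusted p = 0.00822).

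The arrays of the lines without serum did not overlap for these 7 probe sets, as for 74.3% of all tested probe sets. None of the 7 calls held without wild-type serum-free 1 (adjusted p from 0.0502 to 0.12), when the share of all tested probe sets called also dropped, to 12%. Without Rb-null serum-free 1 the calls of Rbl2 and of the f-suffixed Tfdp1 probe set were left, and without wild-type serum-free 2 those of E2f8 and Tfdp1, while without Rb-null serum-free 2 those of Rb1 and the first E2f8 probe set were lost (adjusted p = 0.0808 and 0.0639). Over the alternatives run, Rbl1 ranged from 0.46 to 0.58, Tfdp1 from 0.33 to 0.61 and from 0.41 to 0.74 on its called probe sets, and E2f8 from -0.45 to -0.30 on its r-suffixed probe set. Values near the floor moved further, E2f8 on its first probe set from -0.73 to -0.17, Rb1 from -1.16 to -0.18 and Rbl2 from 0.23 to 0.56.

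**Figure D3:**
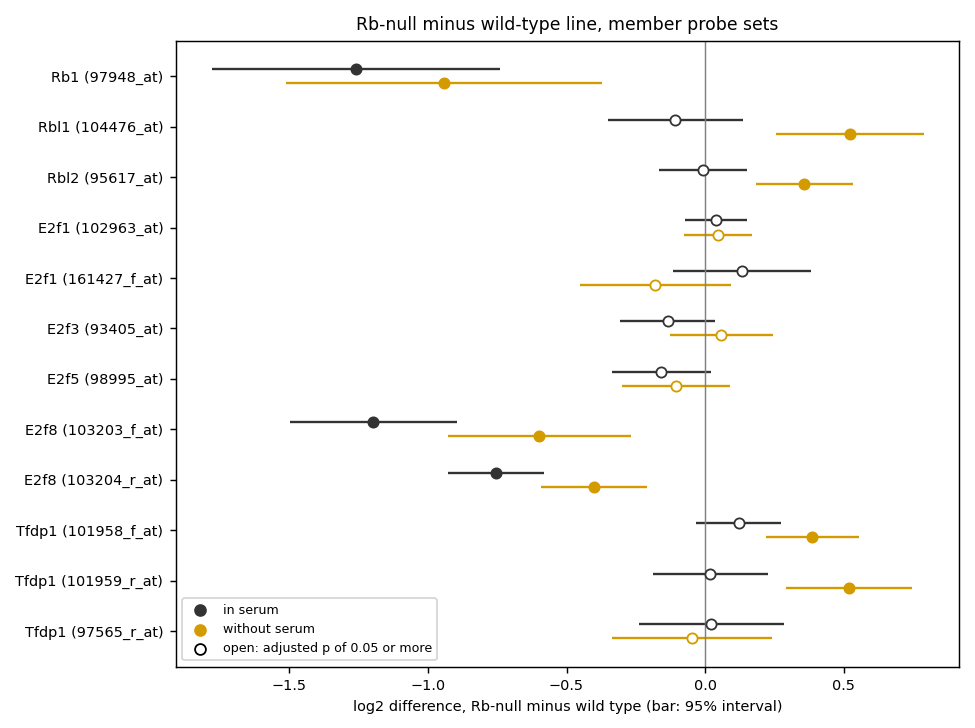
Log2 difference of Rb-null minus wild-type cells (points, with 95% intervals) for the 12 tested member probe sets, in serum and without serum; filled points passed the threshold. E2f8 and Rb1 lay left of 0 in both media, whereas Rbl1, Rbl2 and 2 Tfdp1 probe sets lay right of 0 only without serum among the points that passed. The Rb1 and Rbl2 points compare arrays with groups at the floor.

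Read as levels over the 4 groups, E2f8 was highest in wild-type serum, then in Rb-null serum, then in wild-type cells without serum and lowest in Rb-null cells without serum, and no neighbouring groups overlapped on either probe set. Mean deposited intensities of the first probe set were 1793 ± 388 (SD, n = 3), 835 ± 12.7 (SD, n = 2), 371 ± 50.4 (SD, n = 2) and 240 ± 0.304 (SD, n = 2). Rbl1 had another order, with 657 ± 90.2 (SD, n = 3) in wild-type serum and 636 ± 7.12 (SD, n = 2) in Rb-null serum, which overlapped, then 481 ± 29.4 (SD, n = 2) in Rb-null serum-free and 330 ± 9.02 (SD, n = 2) in wild-type serum-free cells. The f-suffixed Tfdp1 probe set had means of 2683 ± 21.5 (SD, n = 2) in Rb-null serum, 2207 ± 185 (SD, n = 3) in wild-type serum, 2141 ± 12.4 (SD, n = 2) in Rb-null serum-free and 1404 ± 73.0 (SD, n = 2) in wild-type serum-free cells. As deposited, the Rb-null serum-free values lay within the range of wild-type serum. After normalization they were 2020 and 2040, below all wild-type serum arrays (2182, 2245 and 2338.5). E2f5 had means of 393 ± 11.5 (SD, n = 3), 358 ± 21.0 (SD, n = 2), 296 ± 8.79 (SD, n = 2) and 271 ± 21.9 (SD, n = 2), in the group order of E2f8, with no overlap between the serum arrays of the lines and all serum-free arrays below all serum arrays.

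The genes whose pattern over the 9 arrays was most like that of a member were sought among 7814 probe sets above the floor on all arrays, as a description, since the points share arrays and fall into 4 groups. Closest to E2f8 on its r-suffixed probe set, which had its higher mean, were Naa15 (Pearson r = 0.990), Lsm2 (0.988) and Ctrl (0.987). For Rbl1 they were Ilf2 (0.979), Npnt (0.979) and Snrpa1 (0.978), and for Tfdp1 Usp1 (0.991), Gnl3 (0.991) and Wdr77 (0.988). E2f5 was most like Ckap2 (0.972), Ssx2ip (0.972) and Tk1 (0.968), the thymidine kinase of DNA precursor supply. Rbl2 was most like Mt1 (0.980), a metallothionein, Psmb8 (0.960) and Gstk1 (0.937), and Rb1 most like Csrp1 (0.990), Tspan8 (0.978) and Arl2bp (0.977), both members with values at the floor in these correlations.

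Around the family, most genes of a list of E2F targets fell together with E2f8. The list was drawn up for S phase but also holds mitotic genes such as Birc5. After withdrawal 29 of 35 tested genes of this list of 40 fell and 0 rose in wild-type cells. Of all tested probe sets 9.25% were lower and 6.61% higher there. The median was -1.01, against 0.05 over all tested probe sets. In Rb-null cells 23 fell and 0 rose, with a median of -0.46 against 0.00, where 6.42% of all were lower and 7.5% higher. The ribonucleotide reductase subunit Rrm2 fell by 2.52 and 2.27 on the log2 scale in wild-type and Rb-null cells (SE 0.10 and 0.11). The topoisomerase Top2a stood at -2.26 and -2.32 (SE 0.08 in each line) and Birc5, a protein of the mitotic chromosomal passenger complex, at -2.50 and -3.12 (SE 0.08 in each line). E2f8 lay within the range of this list in both lines. In the interaction Mcm3 (0.83, SE 0.12, adjusted p = 0.017) and Mcm7 (0.86, SE 0.14, adjusted p = 0.0228), subunits of the replicative helicase, and Birc5 (-0.62, SE 0.11, adjusted p = 0.047) passed, and the other 32 did not. Over all tested probe sets 0.929% passed.

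Averaged over the media, 19 of these 35 genes were higher and 6 lower in Rb-null cells, with a median of 0.27 against -0.05 over all tested probe sets. Of all tested probe sets 21.8% were higher and 23.4% lower. Prim1, the DNA primase subunit, stood at 1.34 (SE 0.10, adjusted p = 1.21e-05), Gmnn, the licensing inhibitor geminin, at 1.27 (SE 0.11, adjusted p = 3.63e-05) and Pcna, the sliding clamp, at 0.87 (SE 0.06, adjusted p = 1.04e-05). E2f8 lay on the other side of 0, at -0.90 and -0.58, below the lowest of the 35 (-0.38). Also lower were the list members Pold1, Mybl2, Tk1, Mcm5, Ccne1 and Lig1. In serum 13 were higher and 3 lower, with a median of 0.16 against -0.03, where 13.2% of all tested probe sets were higher and 10.4% lower. Without serum 17 were higher and 3 lower, with a median of 0.32 against -0.07, where 16.8% of all were higher and 13.9% lower.

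**Figure D4:**
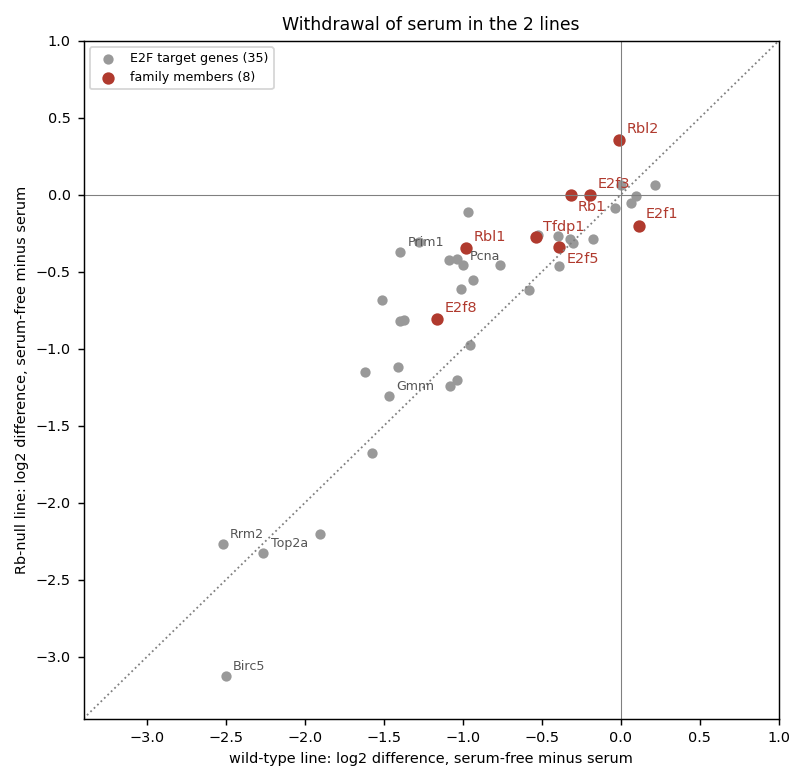
Log2 difference between serum-free and serum medium in the wild-type line (x axis) and in the Rb-null line (y axis) for the 35 tested E2F target genes (grey) and the 8 family members (red, each shown by its brightest tested probe set); the dotted line marks equal differences. E2f8 and Rbl1 lay above the line among the target genes, and Rb1 and Rbl2 are limited by the floor in the groups below it.

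Of the cyclins, kinases and inhibitors that act on pocket proteins, 15 of 19 were tested. Averaged over the media 7 were lower and 1 higher in Rb-null cells, with a median of -0.20 against -0.05 over all tested probe sets. Of all tested probe sets 23.4% were lower and 21.8% higher, 45.2% in either direction. The number called in either direction is thus near the background, while the calls of this list were mostly lower. Cyclin D1 (Ccnd1), which starts the phosphorylation of pocket proteins, stood at -0.77 (SE 0.04, adjusted p = 8.86e-07), cyclin D3 (Ccnd3) at -0.58 (SE 0.06, adjusted p = 6.88e-05) and the kinase Cdk2 at 0.49 (SE 0.07, adjusted p = 0.00057). After withdrawal 3 rose and 3 fell in wild-type cells, where 15.9% of all tested probe sets were called, and 2 rose and 4 fell in Rb-null cells, where 13.9% were. The medians were -0.01 and -0.09, against 0.05 and 0.00 over all tested probe sets. The kinase subunit Cks1b fell by 1.00 and 1.17, cyclin A2 (Ccna2) fell by 1.08 and 1.24, and the inhibitor Cdkn2b rose by 0.73 and 0.45, in wild-type and Rb-null cells. Cyclin D1 stood at -0.05 in wild-type (adjusted p = 0.558) and -0.48 in Rb-null cells (adjusted p = 0.000618), and its interaction passed (-0.43, SE 0.08, adjusted p = 0.0397).

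The DREAM complex joins p130 or p107 and E2F to the MuvB core in resting cells, and 3 of 6 listed subunits were on the array and tested. After withdrawal 2 of these 3 fell in wild-type and 1 in Rb-null cells, and 0 rose. Of all tested probe sets 9.25% fell in wild-type and 6.42% in Rb-null cells. Lin9, a subunit of that core, fell after withdrawal by 0.60 in wild-type and by 0.64 in Rb-null cells (SE 0.07 and 0.08, adjusted p = 0.000387 and 0.000619). Mybl2, which encodes B-MYB and binds the core in cycling cells, fell by 0.32 in wild-type cells (SE 0.09, adjusted p = 0.0467) and stood at -0.28 in Rb-null cells (adjusted p = 0.114). Rbbp4, the third, a histone-binding subunit of the core, stood at -0.05 and 0.18 (adjusted p = 0.741 and 0.278). Averaged over the media Mybl2 was lower in Rb-null cells at -0.31 (SE 0.07, adjusted p = 0.00606) and Lin9 higher at 0.14 (SE 0.05, adjusted p = 0.0495), and Rbbp4 stood at -0.03 (adjusted p = 0.679). The other listed family members E2f2, E2f4, E2f7 and Tfdp2 matched no probe set and are not analysed here.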

How the data were processed

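Total RNA was measured on 9 single-channel arrays of 12422 probe sets. The authors deposited linear intensity values, whose summarisation and scaling are not stated in any source used here. Upper quartiles differed by 0.22 on the log2 scale, so values were quantile normalized, raised to a floor of 197 (percentile 25 of all values) and taken to log2. The 9686 probe sets above the floor on at least 2 arrays were tested. Symbols came from the platform annotation, updated by gene identifier from a RefSeq table of GRCm38.p6, which named 10833 probe sets with 1 gene, left 396 with several and 1193 with none.

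With limma 3.58.1 (R 4.3.3), 4 group means were fitted at once to the 9 arrays, with a prior variance that follows intensity (residual df 5, prior df 4.20). Two-sided tests had Benjamini-Hochberg adjustment over all 9686 probe sets. The procedure was tested on simulated arrays. A gene with several probe sets was represented in lists by the one with the highest mean. Named genes were all members, the 3 probe sets most correlated with each member that passed, and up to 3 genes per list with the smallest adjusted p for the genotype and for withdrawal. The members and lists were chosen with earlier results of these data known. Promoters came from RefSeq (GRCm38.p6), which held 7 of the 9 members.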

Additional observations from a re-analysis of the deposited data

How the results depend on the processing

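The alternatives were the values as deposited, scaling to a common median, floors at percentile 10 and 40, no filter or a filter on all 9 arrays, no intensity trend, array weights (whose iteration stopped before it converged), a replicate block, fits of the compared groups alone, and leaving out each array, where a lone array was assumed to vary like the other groups. No member's called difference changed sign. Of the members' values under these settings, 1245 kept their side of the threshold, 53 lost it and 16 gained it. Without any single array, the number of member probe sets past the threshold ranged from 5 to 7 for the averaged genotype difference, stayed at 3 in serum, ranged from 0 to 7 without serum, from 5 to 6 for withdrawal in wild-type and from 2 to 6 in Rb-null cells, and from 0 to 1 for the interaction. With the floor at percentile 40 it was 4 without serum, 3 for Rb-null withdrawal and 1, E2f8, for the interaction. Of all tested probe sets 35.7%, 16.7% and 1.61% were called there. The E2f8 call was on its first probe set (1.02), whose genotype difference without serum shrank to -0.17 under that floor. Rb1 lost its call in all 3 genotype comparisons (adjusted p = 0.126, 0.145 and 0.586). Rbl1 gained the averaged and E2f5 the serum call, where 50.2% and 26.8% of all tested probe sets were called. With array weights the number of member probe sets was 5 in serum and 3 for the interaction (Rbl1, Rbl2 and Tfdp1). Of all tested probe sets 57.2% and 4.1% were called there. In the fit of Rb-null arrays alone withdrawal gave 3, with 13.1% of all tested probe sets called. Same-numbered arrays did not regularly deviate together (correlations from -0.23 to 0.33, with 2 of 12 pairs over 0.1). Deviations in a group of 2 arrays mirror each other, so this check cannot exclude a pairing or a shared batch. The replicate block gave 6, 3, 7, 6, 4 and 0 calls in the order above, and crossed numbers in the Rb-null line, chosen after seeing the data, gave 3 for withdrawal. Of all tested probe sets the block called 38.1%, 16.5%, 31.7%, 15.9%, 13% and 0.527%, and the crossed numbers 11.9%.

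Over all probe sets, counts past the threshold ranged under the alternatives from 3068 to 6219 (4377 as reported) for the averaged genotype difference, 877 to 5544 (2287) in serum, 1159 to 4981 (2971) without serum, 667 to 2662 (1536) and 497 to 2280 (1348) for withdrawal in wild-type and Rb-null cells, and 12 to 397 (90) for the interaction. Signal over background limits Rb1, Rbl2 and the first E2f1 probe set, whose values at the floor have no order.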

Other observations

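Of 18 listed genes for corepressors and other proteins bound by RB or E2F, 14 were tested. Averaged over the media 4 were higher and 3 lower in Rb-null cells, with a median of 0.09 against -0.05 over all tested probe sets, of which 45.2% were called, so the number called is near the background. Id2, among the 3 lower, is no corepressor but encodes a helix-loop-helix inhibitor that RB can bind, and stood at -2.45 (SE 0.06, adjusted p = 1.47e-08), the maintenance DNA methyltransferase Dnmt1 at 0.38 (SE 0.05, adjusted p = 0.000417) and the histone deacetylase Hdac1 at -0.45 (SE 0.06, adjusted p = 0.000439). After withdrawal Dnmt1 fell by 0.86 in wild-type and by 0.33 in Rb-null cells (interaction 0.53, adjusted p = 0.0524), Sin3b rose by 0.35 and 0.52, and Id2 rose in Rb-null cells by 0.52 (adjusted p = 0.0043) with 0.07 in wild-type cells (adjusted p = 0.598).

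Of 14 listed partners of E2F6 in its polycomb-type complex, 7 were tested, and averaged over the media 3 were higher and 1 lower in Rb-null cells, where 21.8% of all tested probe sets were higher and 23.4% lower. The histone methyltransferase Ehmt2 was lower at -0.75 (SE 0.11, adjusted p = 0.000615) and rose after withdrawal by 0.54 in wild-type and by 0.84 in Rb-null cells. Epc1 stood at 0.31 (SE 0.08, adjusted p = 0.0104) and Max, the partner of MYC, at 0.40 (SE 0.12, adjusted p = 0.0226). Eed fell after withdrawal in wild-type cells by 0.74 (SE 0.19, adjusted p = 0.0288), with -0.15 in Rb-null cells (adjusted p = 0.791), and the interaction was 0.59 (adjusted p = 0.5). Deposited wild-type serum readings were uneven for Eed, at 1093 ± 374 (SD, n = 3), and for Max, at 1014 ± 248 (SD, n = 3).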
